A study of Mus musculus with 5 samples.

Results

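The peaks described here are ATRX peaks near the distal ends of the mouse autosomes. A peak was taken when its summit lay within 2 Mb of the highest peak end seen on its chromosome in any of the 4 deposited lists, for chromosomes 1 to 19. This gave 9570 of 651098 peaks: 1393 of 96670 in the control list, 3175 of 199059 with TBC1D3, 1881 of 141387 with MICAL1-M1 and 3121 of 213982 at DIV7. The 19 windows add up to 38 Mb and 1.58% of the length between the first and last peak on these chromosomes.

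The binding of ATRX was mapped with ChIP-seq, which sequences the DNA that an antibody pulls down, in cultured neurons of C57BL6/J mouse embryos that received lentivirus on day 5 in vitro. Neurons with mCherry, a red fluorescent reporter, serve as control at day 14 in vitro (DIV14). At the same age 1 library is from neurons with TBC1D3, a gene specific to hominoids, and 1 from neurons with the construct named MICAL1-M1 (MICAL1 is an actin-oxidising enzyme). The last library is from younger mCherry neurons, at DIV7. Each group is 1 library, so no value has a replicate error, no condition was tested against another, and intervals are exact binomial ones at 95% that cover counting error only. Within the MICAL1-M1 list the peak names begin with M2, against the M1 of the sample title, so its label is less sure than the others. The lists reach an uncorrected p of 0.05 and rest on different depths: the caller's genome background, read back from fold and p, was 3.56 fragments in the control, 1.22 with TBC1D3, 2.61 with MICAL1-M1 and 1.28 at DIV7. Depth and condition cannot be told apart here.

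Mouse chromosomes are telocentric: the centromere sits at the proximal end, and the distal end is the long-arm telomere with its neighbouring, often gene-rich subtelomere. Telomeres are arrays of the TTAGGG repeat, bound by shelterin and rich in guanine. ATRX is a chromatin remodeller that works with the chaperone DAXX to place the histone variant H3.3 at telomeres, pericentromeres and other repeats, and tumours that maintain telomeres by recombination often lack it.

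The strongest distal peaks of the control by fold lay at gene starts rather than at the chromosome tips, and the promoters of the 4 peaks with the highest folds are shown. The stretches come from RefSeq (GRCm38.p6), run from 250 bases before to 50 bases after the start of transcription, and are written 5′ to 3′ along the gene with each CG dinucleotide in capitals. They lie at chr11:121388202-121388501 (minus strand) for Rab40b, a small GTPase of the Rab family, at chr2:180589157-180589456 (plus strand) for Ogfr, the opioid growth factor receptor, at chr19:60580974-60581273 (minus strand) for Cacul1, a cullin-domain protein of the cell cycle, and at chr4:155669170-155669469 (minus strand) for Mib2, a ubiquitin ligase of Notch signalling.
Rab40b: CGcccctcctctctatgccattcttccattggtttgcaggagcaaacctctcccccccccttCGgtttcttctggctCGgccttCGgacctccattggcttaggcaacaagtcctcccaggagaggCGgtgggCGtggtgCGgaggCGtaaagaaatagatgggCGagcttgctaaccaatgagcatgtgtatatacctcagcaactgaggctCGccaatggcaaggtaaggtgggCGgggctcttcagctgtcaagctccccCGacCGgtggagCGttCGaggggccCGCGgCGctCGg
Ogfr: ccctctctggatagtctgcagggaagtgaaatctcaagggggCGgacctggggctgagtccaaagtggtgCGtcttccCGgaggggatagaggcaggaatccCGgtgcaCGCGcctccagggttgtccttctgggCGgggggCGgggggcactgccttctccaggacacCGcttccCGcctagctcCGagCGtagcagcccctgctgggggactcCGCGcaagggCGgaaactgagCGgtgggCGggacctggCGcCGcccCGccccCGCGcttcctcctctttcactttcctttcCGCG
Cacul1: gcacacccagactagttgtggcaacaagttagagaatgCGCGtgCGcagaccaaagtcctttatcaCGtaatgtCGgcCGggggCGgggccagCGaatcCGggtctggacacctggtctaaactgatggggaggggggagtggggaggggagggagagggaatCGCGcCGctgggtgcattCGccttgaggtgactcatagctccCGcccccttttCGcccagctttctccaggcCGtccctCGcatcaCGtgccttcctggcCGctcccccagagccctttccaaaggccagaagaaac
Mib2: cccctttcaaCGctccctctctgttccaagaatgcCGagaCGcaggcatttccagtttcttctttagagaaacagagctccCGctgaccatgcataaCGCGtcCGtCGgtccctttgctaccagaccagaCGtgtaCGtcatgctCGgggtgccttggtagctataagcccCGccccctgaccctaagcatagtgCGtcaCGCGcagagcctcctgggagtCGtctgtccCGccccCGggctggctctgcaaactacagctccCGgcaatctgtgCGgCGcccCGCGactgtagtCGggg
They hold 19, 24, 19 and 24 CG dinucleotides, in this order. A control peak touched a promoter of 144 of the 405 distal genes that have one in the table (35.56%), beside 37.2% of all such genes. The same held for 49 with TBC1D3 (12.1%, beside 12.6%), 99 with MICAL1-M1 (24.4%, beside 27.6%) and 35 at DIV7 (8.64%, beside 12.5%). Over the 487 promoters of these 405 genes, out of 504 protein-coding genes in the windows, the median was 24 CG in the 171 that a control peak touched and 7 in the 316 that none touched, beside 23 and 6 for the remaining autosomal promoters. The letters TTAGGG, searched on both strands, occurred in 12.9% of the distal promoters with a control peak, in 8.86% of those without and in 10.5% of all 20085 promoters of these chromosomes. A run of 2 TTAGGG copies was in 0 of the distal promoters and in 3 of all. The motif GGGTTAGGG, which overlaps both others, was in 2 distal promoters and in 82 of all.

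Over the whole 2 Mb, ATRX summits were less dense than elsewhere in the control, MICAL1-M1 and DIV7 lists and about as dense with TBC1D3. The control had 36.7 summits per Mb in the windows and 40.1 in the rest of the same chromosomes, a ratio of 0.914 (0.867 to 0.964). With MICAL1-M1 the densities were 49.5 and 58.4 per Mb, a ratio of 0.848 (0.8095 to 0.887). With TBC1D3 they were 83.55 and 81.1 per Mb, a ratio of 1.03 (0.994 to 1.07), and at DIV7 82.1 and 86.4 per Mb, a ratio of 0.951 (0.918 to 0.985). The median ratio over the 19 chromosomes was 0.9085 in the control, 0.8137 with MICAL1-M1, 1.039 with TBC1D3 and 0.9909 at DIV7. Standard deviations over the chromosomes were 0.388, 0.350, 0.167 and 0.134, in this order. The intervals count each summit as independent and do not cover this spread. Relative to the control, the pooled ratio was 1.13 times as high with TBC1D3 (1.06 to 1.20), 0.927 times with MICAL1-M1 (0.864 to 0.995) and 1.04 times at DIV7 (0.976 to 1.11). With every list cut to the length of the shortest, the TBC1D3 ratio was 1.054 (1.002 to 1.107). Without chromosome 10, a choice made after the data were seen, it was 1.045 (1.008 to 1.083), and the ratio was 0.953 in the control (0.903 to 1.006), 0.885 with MICAL1-M1 (0.845 to 0.927) and 0.968 at DIV7 (0.933 to 1.003). So the intervals of the control and DIV7 took in 1 without that chromosome. The window width mattered too: in 5 Mb windows the control's ratio turned to 1.05 and the TBC1D3 value relative to the control was 1.025 (0.986 to 1.07). Median folds, which set the fragments piled up at a summit against the background assumed there, were 2.19 inside and outside the windows in the control, and 2.255 in both places with TBC1D3. At the edge, the control had 14 summits in the last 20 kb inside the windows (median fold 2.13) and 15 in the first 20 kb outside (1.97).

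The pooled ratio hid a gradient toward the chromosome end in 2 of the lists. In the last 500 kb, a span chosen after the data were seen, the control had 224 summits on the 19 chromosomes and a density 0.588 times that of the rest (0.514 to 0.670). The MICAL1-M1 list had 344 summits there and a ratio of 0.620 (0.556 to 0.689). The ratio was under 1 on 18 of 19 chromosomes in the control and on 17 of 19 with MICAL1-M1. TBC1D3 had 879 summits in the same span, a ratio of 1.14 (1.07 to 1.22), and DIV7 had 831, a ratio of 1.01 (0.945 to 1.08), with 7 and 8 chromosomes under 1. The share of all 500 kb windows with a ratio under 1 was not counted in any list. These counts of chromosomes therefore have no background and do not by themselves set the ends apart from other places. With every list cut to the 96230 peaks of the shortest one by p, the 4 ratios were 0.588 in the control, 0.603 with MICAL1-M1, 1.29 with TBC1D3 and 1.07 at DIV7. The control's shortfall stood both outside gene bodies (ratio 0.437, 0.348 to 0.541) and inside them (0.785, 0.660 to 0.926). In the last 250 kb TBC1D3 reached 1.28 (1.17 to 1.4) and DIV7 1.15 (1.05 to 1.259), against 0.609 in the control and 0.627 with MICAL1-M1. Some of these summits belong to peaks that themselves set the end of a chromosome under the rule. Without them the last 250 kb held 102.9 summits per Mb with TBC1D3 and 96.2 at DIV7.

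**Figure D1:**
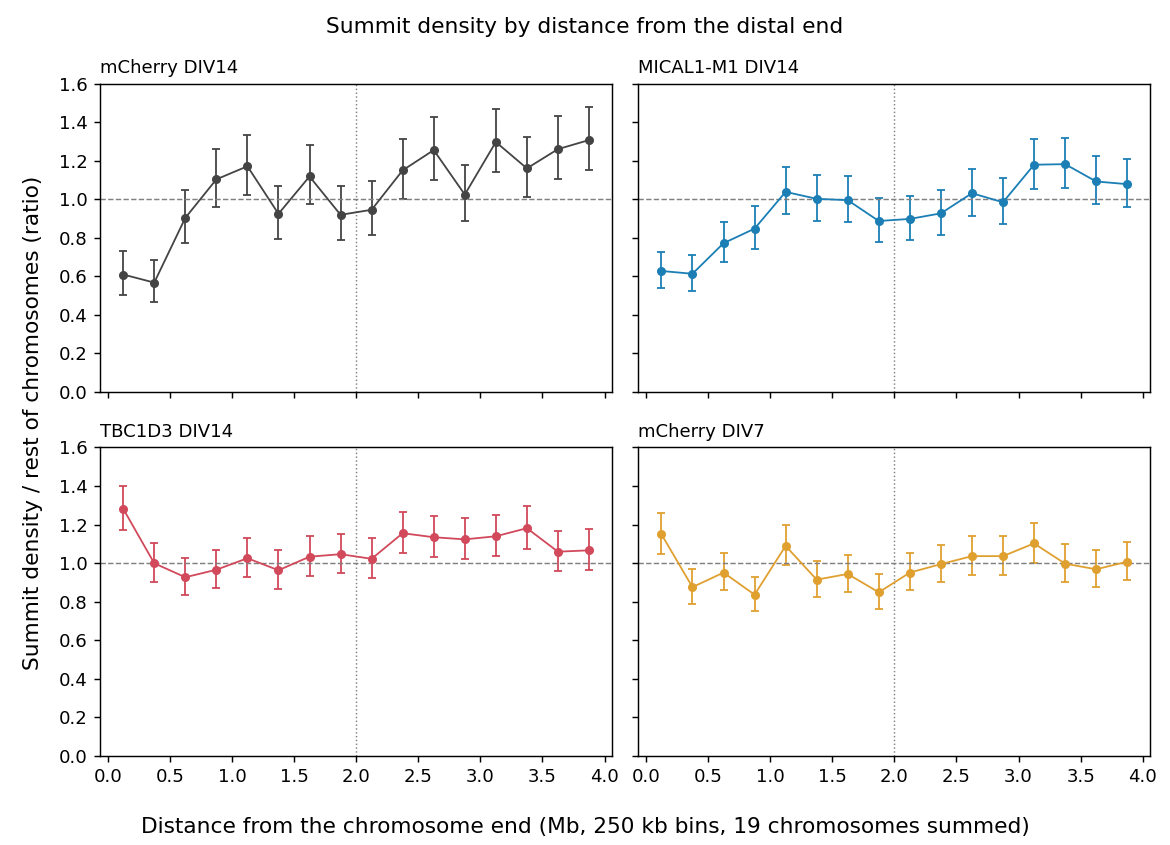
Summit density in 250 kb bins by distance from the distal chromosome end in Mb, summed over 19 chromosomes and divided by the density of the rest of these chromosomes. Bars are 95% exact binomial intervals and the dotted line marks 2 Mb; the first bin lies at 0.609 in the control and at 1.28 with TBC1D3.

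The chromosome ends differed from each other far more in the control and MICAL1-M1 lists than in the other 2. In the control the ratio ran from 0.3205 on chromosome 10 to 1.725 on chromosome 1, with an interval wholly above 1 on 3 chromosomes and wholly below 1 on 8. With MICAL1-M1 it ran from 0.274 to 1.69 on the same 2 chromosomes, with 2 intervals above 1 and 10 below. With TBC1D3 it ran from 0.777 on chromosome 10 to 1.52 on chromosome 7, and at DIV7 from 0.664 on chromosome 10 to 1.175 on chromosome 17. Across the 19 ends the ratios of control and MICAL1-M1 had a Pearson r of 0.895 and a Spearman rho of 0.877, as a description. Those of control and DIV7 had 0.208 and 0.0825. TBC1D3 had 0.581 and 0.726 with the control, 0.571 and 0.798 with MICAL1-M1, and 0.482 and 0.463 with DIV7. MICAL1-M1 and DIV7 had 0.419 and 0.388. The points of each list share 1 library. At a density of at least 1.5 times the rest of the chromosome, the control counted 2 of 19 distal windows and 15.5% of all 1192 windows of 2 Mb. At 1/1.5 or less it counted 5 of 19, against 26.0% of all. Both counts lie near the share of all windows of this size. The same counts were 2 high (11.5% of all) and 4 low (18.7%) with MICAL1-M1, 1 high (2.01%) and 0 low (4.78%) with TBC1D3, and 0 high (0.252%) and 1 low (2.6%) at DIV7.

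**Figure D2:**
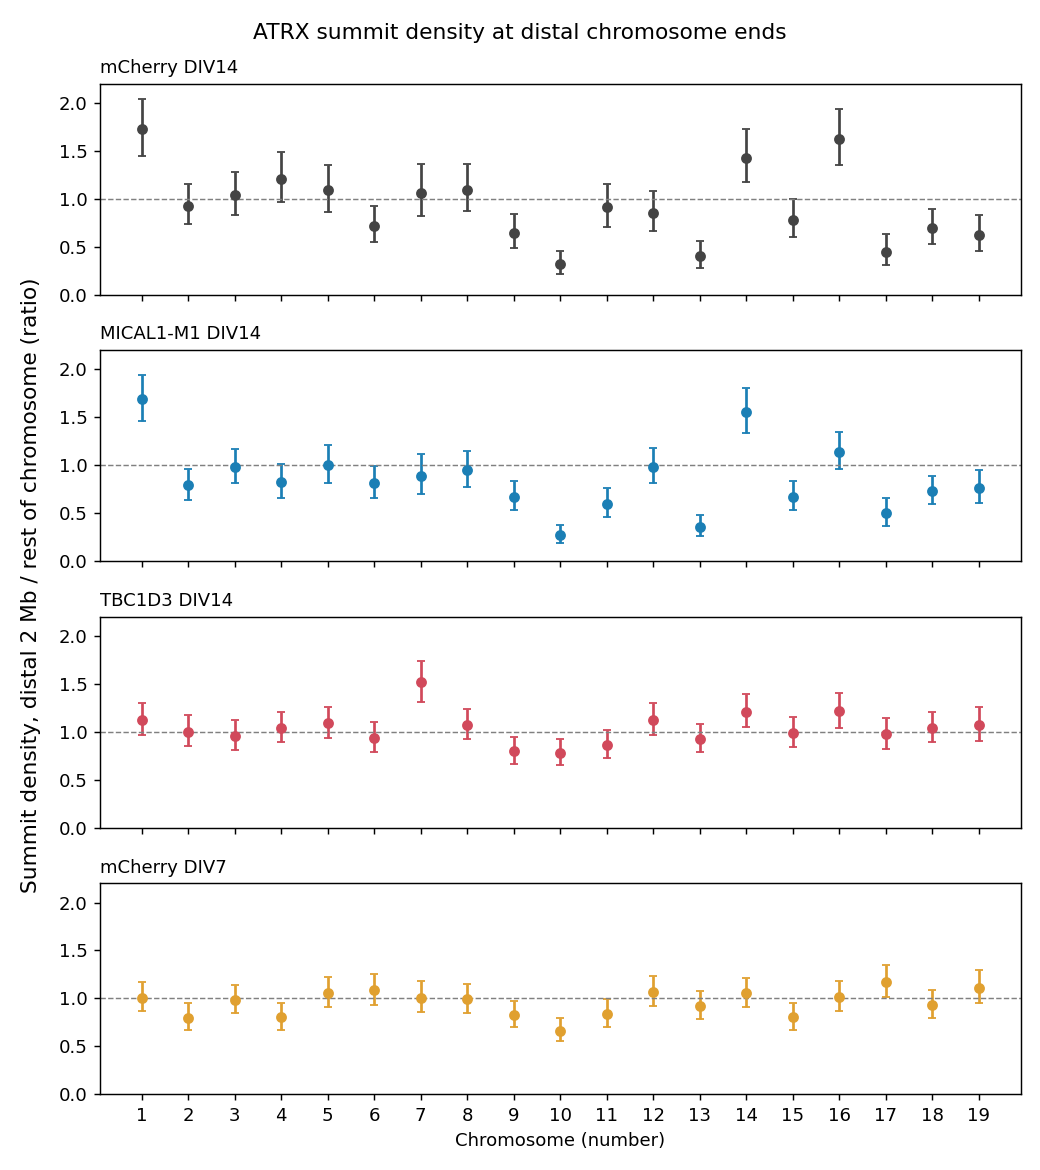
Density of summits in the distal 2 Mb over that in the rest of the same chromosome, for chromosomes 1 to 19 in each library, with 95% exact binomial intervals. The control spans 0.3205 to 1.725, and DIV7 stays between 0.664 and 1.175.

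Gene content of the windows was uneven. The end of chromosome 1 (193371956 to 195371955) holds 5 protein-coding genes, among them Plxna2, a semaphorin receptor of axon guidance, and had 138 control summits. The end of chromosome 16 holds 17 genes, with the neuronal adhesion gene Dscam, and had 133 control summits (ratio 1.62, 1.36 to 1.93). The end of chromosome 14 holds 5 genes, with the sodium leak channel gene Nalcn and the channel regulator gene Fgf14, and had 112 (ratio 1.43, 1.17 to 1.72). The lowest control counts were 30 on chromosome 10, where 58 of 84 genes are olfactory receptors, 32 on chromosome 17, where protein-coding genes cover 2.55% of the window, and 36 on chromosome 13. Over the 19 windows the control's ratio had a Spearman rho of 0.556 with the share of the window that genes cover and of -0.221 with the number of genes, as a description. These values were 0.375 and -0.426 with TBC1D3, 0.3965 and -0.486 with MICAL1-M1, and -0.0737 and -0.708 at DIV7.

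Several long neuronal genes had more summits per Mb in their bodies than the rest of their chromosome in the control and MICAL1-M1 lists, as did many long genes elsewhere. Among the 19 distal genes of at least 150 kb, a length set after the data were seen, Dscam had 69 summits in the control (118 per Mb, 2.89 times the rest of its chromosome, 2.24 to 3.66), 73 with MICAL1-M1 (1.98 times), 57 with TBC1D3 (1.27 times) and 49 at DIV7 (1.004 times). Shank2, which encodes a postsynaptic scaffold, had 34 in the control (2.56 times, 1.77 to 3.59), 31 with MICAL1-M1 (1.67 times), 47 with TBC1D3 (1.58 times) and 42 at DIV7 (1.20 times). Plxna2 had 20, 25, 22 and 20 summits in control, MICAL1-M1, TBC1D3 and DIV7, which is 2.54, 2.145, 1.36 and 1.15 times the rest of chromosome 1. For these 3 genes the ratio was highest in the control and lowest at DIV7. Lrrc7, which encodes the synaptic protein densin, had 49 in the control (2.31 times, 1.71 to 3.06), 60 with MICAL1-M1 (1.91 times), 36 with TBC1D3 (0.875 times) and 36 at DIV7 (0.804 times). Pard3, a gene of cell polarity, lay at 1.87 times in the control and 0.960 times at DIV7. Nalcn and Fgf14 were higher with MICAL1-M1 (1.81 and 1.61 times) than in the control (1.45 and 1.38 times), with overlapping intervals. Long genes that were low in the control included Ano1, a chloride channel gene (0.413 times, 2 summits), Tbcd, a tubulin folding cofactor gene (0.465 times, 3 summits), and Dnah11, an axonemal dynein gene (0.545 times, 7 summits).

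Long genes elsewhere on the autosomes were set beside these. A body density of at least 1.5 times the rest of the chromosome was counted for 8 of the 19 distal genes in the control, and for 41.4% of all 1392 long genes. The counts were 8 of 19 with MICAL1-M1 (39.9% of all), 3 of 19 with TBC1D3 (13.1%) and 0 of 19 at DIV7 (11.1%). The median ratio of the distal long genes was 1.38 in the control, against 1.304 for long genes elsewhere. The counts for the distal genes lie near these shares in the control and MICAL1-M1 lists.

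**Figure D3:**
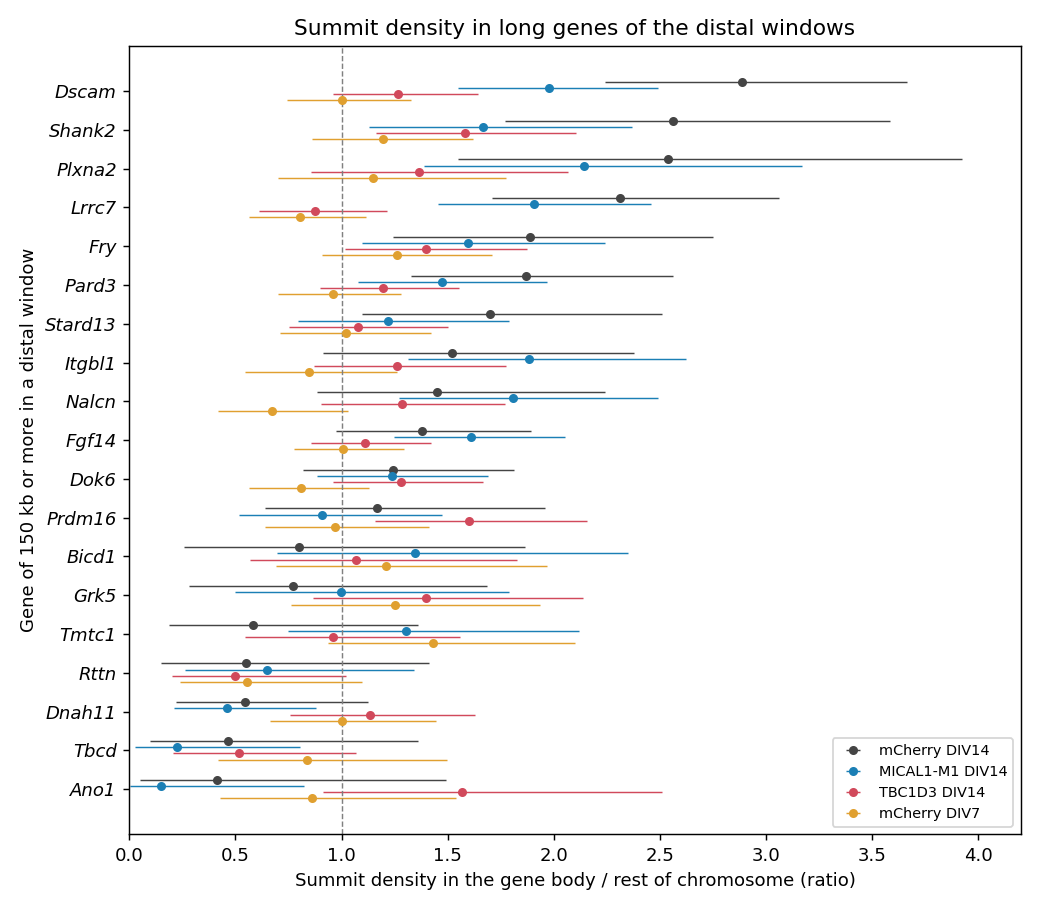
Summit density in the bodies of the 19 genes of at least 150 kb in the distal windows, divided by the density in the rest of their chromosome, with 95% exact binomial intervals, by library. Dscam, Shank2 and Plxna2 lie above 2.5 in the control and between 1.004 and 1.20 at DIV7.

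Distal summits lay at gene ends more often than those of the rest, in windows that hold more genes: 13.3 protein-coding genes per Mb, against 8.52 in the rest. Within 1 kb of either end of a protein-coding gene lay 15.1% of the control's distal summits (13.2 to 17.1), against 9.815% in the rest, and 6.24% (5.42 to 7.13) against 4.04% with TBC1D3. The shares were 9.89% against 6.42% with MICAL1-M1 and 5.575% against 3.73% at DIV7. Genes themselves were no more often occupied: 206 of 504 distal genes had a summit within 1 kb of an end in the control (40.9%, 36.55 to 45.3), beside 44.3% of all autosomal protein-coding genes. With TBC1D3 178 distal genes were occupied (35.3%, beside 34.7% of all), with MICAL1-M1 178 (35.3%, beside 40.4%) and at DIV7 161 (31.9%, beside 34.3%). Against the control, 93 distal genes were occupied in the TBC1D3 list alone (18.45%, beside 15.9% of all genes) and 121 in the control list alone (24.01%, beside 25.5%). For MICAL1-M1 these numbers were 51 (10.1%, beside 11.9%) and 79 (15.7%, beside 15.8%), and for DIV7 82 (16.3%, beside 15.9%) and 127 (25.2%, beside 25.8%). These shares lie near those of the whole autosomes.

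Among the strongest control peaks was the one at Rab40b (chromosome 11, 121387272 to 121388284), with a fold of 5.26 on a pileup of 23 fragments, 594 kb from the chromosome end. Peaks at Ogfr (180588926 to 180589847) and at Cacul1 on chromosome 19 (60580475 to 60581069) had a fold of 4.60 on 20 fragments. Mib2 followed with 4.38 on 19 fragments, and Sacm1l, a phosphoinositide phosphatase gene on chromosome 9, with 4.16 on 18. These 5 peaks had a q of at most 0.05 and a gene end less than 1 kb away. The Cacul1 peak was overlapped by a peak in each of the other lists, and the Ogfr peak by MICAL1-M1 alone. The highest MICAL1-M1 folds stood at Fgf14 (4.43 on 15 fragments), at Nim1k, a kinase gene on chromosome 13 (4.14 on 14), and at Plxna2 (3.95 on 17).

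By gene group, olfactory receptor genes of the chromosome 10 window were occupied in 2 of 58 cases in the control, 9 with TBC1D3, 3 with MICAL1-M1 and 12 at DIV7. Olfactory receptor genes elsewhere were occupied in 0.765%, 11.7%, 1.91% and 16.2% of 1046 cases. These receptors are mostly silent outside the nose. Of 10 zinc finger genes, mostly transcription factors, 7 were occupied in the control, 3 with TBC1D3, 7 with MICAL1-M1 and 3 at DIV7. Elsewhere the shares of zinc finger genes were 57.5%, 31.85%, 46.9% and 36.8%, in this order. Zfp131 led with a fold of 4.16 in the control, 3.61 with TBC1D3 and 2.77 with MICAL1-M1, and had no gene-end summit at DIV7.

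Of 10 synapse and axon genes of the windows, 6 were occupied in the control, 7 with TBC1D3, 6 with MICAL1-M1 and 5 at DIV7. Genes of this list elsewhere were occupied in 80.8%, 46.15%, 73.1% and 26.9% of cases. Dscam, Shank2 and Lrrc7 were occupied in all 4 lists. Stmn3, a stathmin of microtubules, had a fold of 3.32 in the control, 2.36 with TBC1D3 and 1.75 at DIV7, with none in MICAL1-M1. Agrn, which encodes the synapse organiser agrin, had 2.37 in the control and 3.05 with MICAL1-M1 and was unoccupied in the other lists. Plxna2 had 3.95 with MICAL1-M1, 2.23 with TBC1D3 and 2.63 at DIV7. In the control it had no summit within 1 kb of either end, although a control peak with a fold of 3.14 covered bases of its promoter. Cttn and Dnajc5 had a gene-end summit in none of the lists. Among channel and receptor genes, Nalcn had gene-end folds of 3.07 in the control, 2.12 with TBC1D3 and 3.82 with MICAL1-M1, and none at DIV7. The GABA receptor gene Gabrd was occupied in the control alone (2.19), and the acetylcholine receptor gene Chrna4 in none of the lists.

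Fibroblast growth factor genes were occupied in 3 of 5 cases in the control, 4 with TBC1D3, 4 with MICAL1-M1 and 3 at DIV7, with Fgf10 in every list. Elsewhere the shares were 40%, 46.7%, 40% and 20%. Of 7 cytoskeleton and trafficking genes, 5 were occupied in the control, 3 with TBC1D3, 4 with MICAL1-M1 and 4 at DIV7, beside 76.9%, 52.3%, 61.5% and 33.85% of such genes elsewhere. Rab40b had folds of 5.26 in the control, 2.49 with MICAL1-M1 and 1.75 at DIV7, and none with TBC1D3. Of the telomere and DNA maintenance list only Rtel1, a helicase gene named for telomere length, and the repair gene Brca2 lie in the windows. Rtel1 had a gene-end summit in none of the lists, and Brca2 had one in the control (2.19) and with TBC1D3 (1.80). Apart from Rab40b, Zfp131 and Stmn3 in the control, and Plxna2 and Nalcn with MICAL1-M1, none of the gene-end peaks of these groups had a q of at most 0.05.

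Peaks that passed the correction for multiple testing stood apart in TBC1D3 and DIV7. At a q of at most 0.05, 20 of 296 TBC1D3 peaks on chromosomes 1 to 19 were distal (6.76%, 4.18 to 10.2), a density 4.51 times that of the rest (2.71 to 7.10). At DIV7 25 of 385 were distal (6.49%, 4.25 to 9.44), a density 4.32 times that of the rest (2.76 to 6.485). The distal peaks lay on 10 chromosomes with TBC1D3 and on 12 at DIV7, with 6 on chromosome 2 in each list. Several are close neighbours. The intervals here count each peak as independent, so they are too narrow. The rule puts each end at the last peak of any list, and 8 of these 25 DIV7 peaks and 1 of the 20 TBC1D3 peaks set the end of their chromosome, so their place is no finding. Without them 17 of 377 DIV7 peaks (4.51%) and 19 of 295 TBC1D3 peaks (6.44%) were distal, with ratios of 2.94 (1.69 to 4.77) and 4.285 (2.54 to 6.82). In the control 77 of 4029 were distal (1.91%), 1.21 times the rest (0.955 to 1.52), and with MICAL1-M1 13 of 616 (2.11%), 1.34 times the rest (0.710 to 2.31). Such peaks made up 0.630% of the distal TBC1D3 peaks and 0.801% of the distal DIV7 peaks, beside 0.152% and 0.186% of all autosomal peaks of these lists. In the control they made up 5.53%, beside 4.19%, and with MICAL1-M1 0.691%, beside 0.44%. The last 250 kb held 15 of the 20 TBC1D3 peaks and 17 of the 25 DIV7 peaks, against 12 of 77 in the control and 4 of 13 with MICAL1-M1. Leaving out the peaks that set an end, it held 14 of 19 with TBC1D3 and 9 of 17 at DIV7. Of the distal peaks at any q, the last 250 kb held 494 of 3175 with TBC1D3 and 472 of 3121 at DIV7. In the control it held 116 of 1393 and with MICAL1-M1 174 of 1881. Without the last 250 kb the ratio of the q-passing peaks was 1.29 with TBC1D3 (0.415 to 3.04) and 1.58 at DIV7 (0.677 to 3.15), so no difference from the rest was detectable further in. A gene end was no more than 1 kb away for 36 of the 77 control peaks (46.75%), 2 of 20 with TBC1D3 (10%), 7 of 13 with MICAL1-M1 (53.85%) and 1 of 25 at DIV7 (4.0%). In the rest of the autosomes the shares were 40.7%, 10.1%, 41.6% and 12.2%, so the lists differed in this way away from the ends too.

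The local background was raised at nearly all of these TBC1D3 and DIV7 peaks. The caller's local background was over 1.5 times the genome background for 18 of the 20 TBC1D3 peaks and 23 of the 25 DIV7 peaks, against 6 of 77 in the control and 1 of 13 with MICAL1-M1. In the rest of the autosomes it was raised for 53.9% of such peaks with TBC1D3 and 35.1% at DIV7. For the control the shares were 7.79% in the windows and 2.28% in the rest, and for MICAL1-M1 7.69% and 5.565%. The median pileup of the distal peaks with such a q was 72.5 fragments with TBC1D3 and 89 at DIV7. For peaks of the rest with such a q it was 15 and 10. The part of this raised background in the result was not tested.

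**Figure D4:**
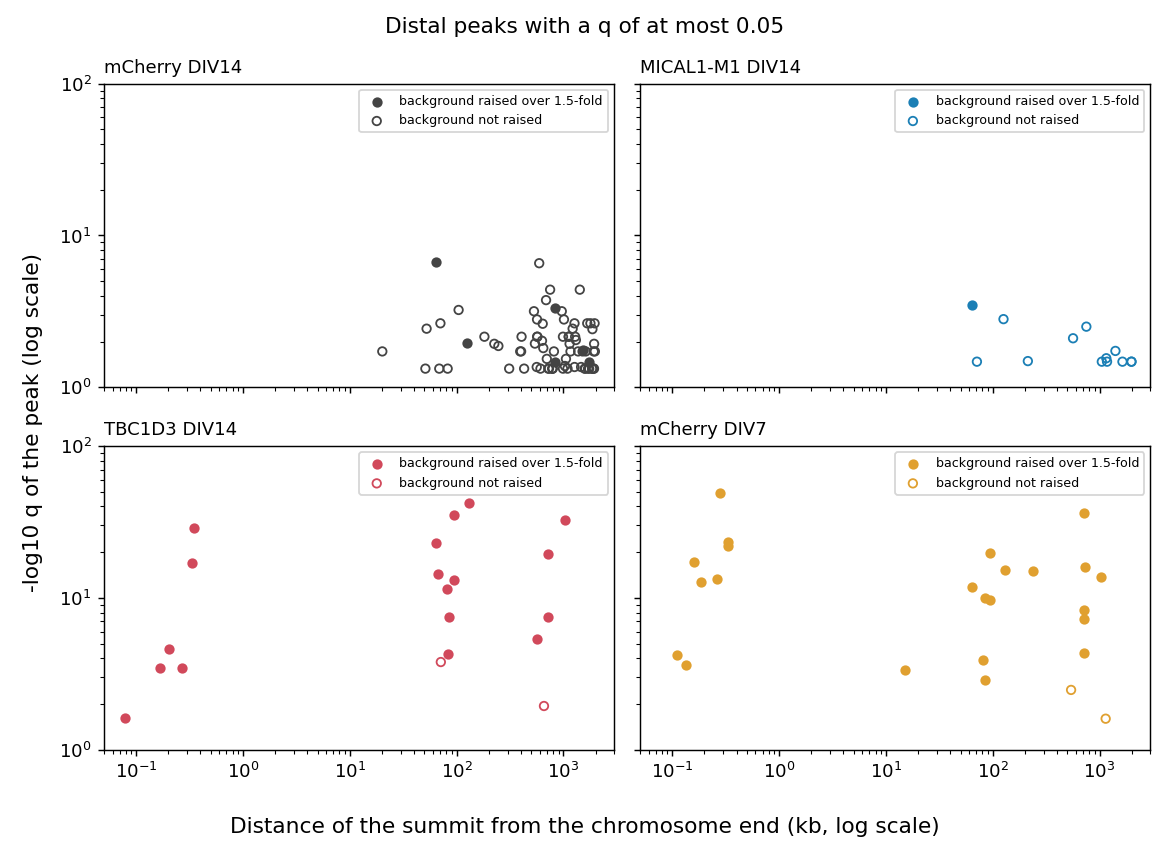
Distal peaks with a q of at most 0.05 in each library, by distance of the summit from the chromosome end (kb, log scale) and -log10 q (log scale); filled points have a local background over 1.5 times the genome background. In TBC1D3 6 and at DIV7 8 points lie within 10 kb of an end, and none does in the control or with MICAL1-M1; all 8 of DIV7 and 1 of the 6 of TBC1D3 set the end of their chromosome.

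TBC1D3 summits lay at 8 of the 14 tips that TBC1D3 peaks did not set, and DIV7 peaks set those 14. The rule sets each end at the last peak, so a peak that sets an end is no finding: DIV7 peaks set 15 ends and TBC1D3 peaks 5, the end of chromosome 10 being shared by both. Of the 14 ends that TBC1D3 did not set, 8 had a TBC1D3 summit in the last 1 kb, 5 of them with a q of at most 0.05. Over all 19 ends, TBC1D3 summits of peaks that set no end came to 421.1 per Mb in this span, against 81.1 in the rest. Of the 19 ends, the control had a summit in the last 1 kb on 1, chromosome 3, and MICAL1-M1 on 0. Peaks of the control and of MICAL1-M1 set 0 ends, so both were counted at places picked by peaks of the other lists. The control's 1 summit is 52.6 per Mb, against 40.1 in the rest. A span of 1 kb per end is too short to show a shortfall in either list. DIV7 had one at 1 of the 4 ends that it did not set. On chromosome 2 the TBC1D3 peak at 182012728 to 182013184 had a fold of 4.23 on 104 fragments over a background of 23.8, and the DIV7 peak at 182012733 to 182013210 had 3.45 on 111 over 31.4. On chromosome 4 TBC1D3 had 3.14 on 96 fragments (156356799 to 156357269) and DIV7 2.50 on 181 (156356828 to 156357272). On chromosome 7 TBC1D3 had 2.03 on 71 fragments over a background of 34.5. The DIV7 peak there (145340943 to 145341443) had a fold of 9.11 on 84 fragments over 8.33, the highest fold of any distal peak in the 4 lists, and it sets that end. Within 10 kb of the ends there were 3 summits in the control, 5 with MICAL1-M1, 35 with TBC1D3 and 49 at DIV7. For the control and MICAL1-M1 this is 15.8 and 26.3 per Mb, against 40.1 and 58.4 in the rest. Without the peaks that set an end, 30 remained with TBC1D3 and 34 at DIV7, and those with a q of at most 0.05 numbered 5 and 0. The remaining summits came to 157.9 per Mb with TBC1D3 and 178.9 at DIV7, against 81.1 and 86.4 in the rest. Peaks of these same lists placed the ends. The sequence under the peaks at the tips and at the places described next was not read here, and whether they lie in repeats was not tested.

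Away from the tips, TBC1D3 and DIV7 shared several places. On chromosome 2, 5 neighbouring peaks passing the q threshold lay between 181917359 and 181931451 in TBC1D3 and again in DIV7, outside genes and 81.9 to 95.2 kb from the end. Near Cr2, a complement receptor gene, a TBC1D3 peak at 195241584 to 195241949 on chromosome 1 had a fold of 5.54 on 111 fragments, and DIV7 had a peak of 2.91 there. Inside Lars2, a mitochondrial leucyl-tRNA synthetase gene on chromosome 9, the folds were 5.93 (123461803 to 123462238, 81 fragments) with TBC1D3 and 2.998 at DIV7. Inside Tmem267 on chromosome 13, between 119596752 and 119603011, TBC1D3 had 2 peaks with a q of at most 0.05 and DIV7 5. None of these peaks on chromosomes 1, 2, 9 and 13 overlapped a peak of the control or of MICAL1-M1, although the control had 2 such peaks elsewhere in Tmem267. A place on chromosome 19 near Csf2ra, a cytokine receptor gene, 64.4 to 64.5 kb from the end, had a peak with a q of at most 0.05 in all 4 lists: a fold of 2.22 in the control on 96 fragments, 4.10 with TBC1D3, 1.93 with MICAL1-M1 and 2.47 at DIV7. With the tips included, 16 of the 20 distal TBC1D3 peaks with such a q were overlapped by a DIV7 peak of any q (80.0%, 56.3 to 94.3). The share in the rest was 57.25%. Of the 25 of DIV7, tips again included, 17 were overlapped by TBC1D3 (68.0%, 46.5 to 85.05), against 47.2% in the rest. Neighbouring peaks count as independent here too, so these intervals are too narrow.

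Over all distal peaks, the share of the control's peaks overlapped by each other list lay near that of the whole autosomes. Of the control's 1393 distal peaks, 23.1% were overlapped by a MICAL1-M1 peak (20.9 to 25.4), beside 22.5% of all its autosomal peaks, 13.35% by TBC1D3 (11.6 to 15.25), beside 12.7%, and 12.6% by DIV7 (10.9 to 14.5), beside 12.2%. In turn, the control overlapped 5.98% of the distal TBC1D3 peaks, against 6.44% in the rest, and 5.86% of the distal DIV7 peaks, against 5.80%. For MICAL1-M1 the distal share was the higher one, 18.1% (16.4 to 19.9) against 15.8% in the rest. Between TBC1D3 and DIV7, 10.55% of the distal TBC1D3 peaks (9.50 to 11.7) and 10.8% of the distal DIV7 peaks (9.70 to 11.9) were overlapped by the other list, beside 9.35% and 8.79% in the rest.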

How the data were processed

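Peak lists of 4 ATRX ChIP-seq libraries were used; the input sample was not analysed here. Chromatin came from an enzymatic kit with an ATRX antibody, per the labels. The submitters' processing notes name ChIPseeker 1.26.2, MACS 1.4.2, Bowtie 1.3.0 and SAMtools 1.9, with no role for any; settings and build: not given in the sources used here. The narrowPeak layout with q is not what that MACS version writes, so the caller is not sure. Scaffold names in the lists are those of GRCm38, which was taken as the build. Each list is the authors' own call on a single library. The deposited score is 10 times -log10 p, cut to a whole number; the deposited -log10 columns hold p (uncorrected) and q. The deposited fold is a ratio over local background, and the authors' summit offset gives the position. These values rank or filter peaks within a list.

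Counting used Python 3.11.15, pandas 2.3.3 and scipy 1.17.1. Pileup and background were solved from fold and p under a Poisson model; 99.989% to 99.997% of rows matched to 0.001 in log10 p. A chromosome spans the lowest start to the highest end in any list. Protein-coding genes (20665 on chromosomes 1 to 19) are from RefSeq for GRCm38.p6 and counted as distal by midpoint. The density ratio was tested on simulated data in which summits fell independently at an even density. Real summits are uneven along chromosomes, so this does not show that the intervals hold for them. The naming rule took the 5 highest folds per list, the top control fold per chromosome, control peaks with a q of at most 0.05 found in all 4 lists, and genes of 8 groups; other q-passing peaks, long genes and tips were picked after values were seen. Members and lists were chosen with earlier results of these data known. Alternatives varied window, q, list size, gene context and overlap. Some genes of these groups are not reported here.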

Additional observations from a re-analysis of the deposited data

Results flagged for a closer look

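The distal window of chromosome 17 was taken up because its ratio to the rest of the chromosome lay above 1 in one list and below 1 in others, each with an interval that leaves out 1. The ratio was 1.175 at DIV7 (1.015 to 1.35), against 0.446 in the control (0.305 to 0.631) and 0.498 with MICAL1-M1 (0.371 to 0.654). With TBC1D3 it was 0.973 (0.825 to 1.14). The window holds 3 protein-coding genes, among them Adcyap1, which encodes the neuropeptide PACAP. The difference between the lists was not tested.

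The distal 2 Mb of chromosome X lie outside the autosomal windows. They held 11 of the chromosome's 404 summits in the control, 60 of 3563 with TBC1D3, 19 of 1306 with MICAL1-M1 and 62 of 5916 at DIV7. Each distal count is above the 3 counts that a count of 0 allows. The control's lowest autosomal total was 2166, on chromosome 19, so its chromosome X ratio rests on few summits. The ratio to the rest of chromosome X was 2.32 in the control (1.15 to 4.197), 1.42 with TBC1D3 (1.08 to 1.83), 1.22 with MICAL1-M1 (0.734 to 1.92) and 0.878 at DIV7 (0.672 to 1.13).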

How the results depend on the processing

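Of the alternative values, 48 stayed close to the value reported, 43 moved and 4 turned to the other side of 1. Turned were the control's density ratio in 5 Mb windows (1.051) and, at a q of at most 0.05, the ratios of the control (1.213), MICAL1-M1 (1.342) and DIV7 (4.322), where TBC1D3 moved to 4.51. In 1 Mb windows the ratio moved to 0.7952 in the control and 0.7148 with MICAL1-M1, and relative to the control to 1.311 with TBC1D3 and 1.199 at DIV7. In 5 Mb windows it moved to 1.078 with TBC1D3 and 0.9509 with MICAL1-M1, and relative to the control to 1.025 and, at DIV7, 0.9286. Outside gene bodies it was 0.863 in the control and 0.9982 at DIV7, which stood at 0.8883 inside them, 0.9022 at equal list size and 0.9909 as the median over chromosomes. Chosen after seeing the data, the next 10 Mb as reference gave 0.8479, 0.9075, 0.805 and 0.9085 in control, TBC1D3, MICAL1-M1 and DIV7. Without the last 250 kb TBC1D3 moved to 0.9937, and at a q of at most 0.05 to 1.289, with DIV7 at 1.581. Also chosen later, leaving out the peaks that set a chromosome's end gave DIV7 0.9462 over all peaks and 2.939 at that q, and TBC1D3 1.028 and 4.285. Gene-end occupancy in these 4 lists was 51.79, 56.75, 49.21 and 56.75% within 3 kb, beside 55.62, 59.89, 55.57 and 61.23% of genes in the rest. It was 7.937, 0.5952, 1.587 and 0.1984% at a q of at most 0.05, beside 8.973, 0.1389, 1.399 and 0.2381%. At equal list size it was 22.82, 29.76 and 17.06% in the last 3, beside 20.15, 35.1 and 18.51%. Over any base of the promoter (also chosen later) it was 35.56, 12.1, 24.44 and 8.642%, beside 37.2, 12.6, 27.6 and 12.5% of all genes. Without olfactory receptors it was 45.74% in the control, beside 46.75% in the rest. Control peaks covered over at least 50% of their length came to 4.666, 11.27 and 4.235% for TBC1D3, MICAL1-M1 and DIV7, and at equal list size to 8.327, 19.17 and 6.461%. The cause of these shifts was not tested. No paired analysis was possible because each group is 1 library and the labels carry no replicate numbers; for the same reason no replicate could be left out. Depth limits single peaks: the median distal pileup was 10 fragments in the control, 7 with MICAL1-M1 and 4 in the other lists.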

Other observations

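Of the 504 distal genes, 129 were occupied in none of the lists, 156 in 1, 116 in 2, 77 in 3 and 26 in all 4. These shares were 25.6, 30.95, 23.0, 15.3 and 5.16%, beside 24.6, 27.1, 24.7, 17.0 and 6.58% of all 20665 autosomal protein-coding genes. Beside the genes described above, those 26 include Csnk1d, a casein kinase of the circadian clock (folds of 3.72 in the control, 2.71 with TBC1D3, 2.77 with MICAL1-M1 and 2.07 at DIV7), Sirt7, a nuclear deacetylase gene (3.07, 2.85, 2.35 and 2.59), and Wls, which carries Wnt proteins to the cell surface (3.07, 2.71, 3.04 and 2.19). Itgb1, the integrin beta 1 gene, had its highest fold with TBC1D3 (3.61, against 2.23 in the control). These 4 genes were chosen after their values were seen.

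The end of chromosome 7 had the highest ratio with TBC1D3, 1.52 (1.31 to 1.74) on 201 summits. The ratio there was 1.06 in the control (0.816 to 1.36), 0.891 with MICAL1-M1 and 1.01 at DIV7. The TBC1D3 density of this window, 100.5 per Mb, was near the 99.0 of the chromosome 14 window. The rest of chromosome 7 had 66.3 per Mb, the lowest TBC1D3 density of the autosomes. The window holds 28 protein-coding genes, among them Shank2, Ccnd1, which encodes cyclin D1, and Fgf3, Fgf4 and Fgf15. The difference was not tested.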
